A study of Mus musculus with 6 samples.

Results

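The genes of cholesterol synthesis, sterol transfer and SREBP control were followed in D10 T cells kept warm or cold. The 29 genes were picked by name from the deposited expression table, which lists 41079 genes in all. They comprise 8 genes of the mevalonate and isoprenoid steps, 3 of the squalene and lanosterol steps, 8 of the steps from lanosterol to cholesterol, 7 of SREBP control, and 3 of sterol transfer and lysosomal export.

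D10 is a cloned mouse CD4+ helper T cell line, so by its label it is 1 clone, and the labels name no genetic change. Non-acclimated cells spent 24 h at 37 °C and cold-acclimated cells spent 24 h at 26 °C, with 3 poly(A) RNA libraries each. The labels say that RNA came from independent extraction batches, old and new, without saying which library belongs to which. Recovered reads per library were 16899628, 21462543 and 31290854 at 37 °C and 19605883, 20579363 and 25169484 at 26 °C, for replicates 1, 2 and 3 in that order.

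Cells build cholesterol from acetyl-CoA by way of mevalonate, farnesyl diphosphate, squalene and lanosterol, and the same path supplies isoprenoids for protein prenylation, ubiquinone and dolichol. When sterols in the endoplasmic reticulum are low, Scap carries the SREBP precursors to the Golgi, where the site-1 and site-2 proteases release factors that activate genes of the pathway, while Insig proteins hold Scap back when sterols are plentiful. Activated T cells are known to raise this program when they grow and divide.

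The cell type on the label was checked against its markers, and replicates 2 and 3 each stood apart in some of them. Cd4, which defines the labelled cell type, was at 1.09, 0.035 and 310 TPM (a level corrected for gene length and library total) in replicates 1, 2 and 3 at 37 °C, and at 1.30, 0.35 and 328 TPM at 26 °C. Cd4 was thus near 0 in both libraries of replicates 1 and 2 and abundant in both libraries of replicate 3, so whether the cultures are the same clone is uncertain. Trac, the T cell receptor alpha constant region, was at 207, 15.0 and 185 TPM at 37 °C and at 184, 12.8 and 129 TPM at 26 °C, low in replicate 2 alone. Cd28 (7.35 and 5.61 TPM in replicate 2 at 37 °C and 26 °C), Cd3d (64.3 and 78.6 TPM) and Il13 (2.12 and 2.30 TPM) were also lowest in that replicate. The 10 T cell markers summed to 3975, 2205 and 3639 TPM at 37 °C and to 3642, 2529 and 3454 TPM at 26 °C, with Cd3g the most abundant and Cd5 at 0 in 5 of the 6 libraries. The 5 Th2 markers summed to 1077, 972 and 1265 TPM at 37 °C and to 2304, 1274 and 796 TPM at 26 °C, with Gata3 the most abundant in 5 libraries and Il10, at 1418 TPM, in 26 °C replicate 1.

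Most markers of other cells were at or near 0. Exceptions were Lyz2, chiefly in replicate 3, Cd68 (1.07 to 6.36 TPM), Ighm (0.89 to 3.13 TPM) and Col1a1. The 2 CD8 markers, Cd8a and Cd8b1, did not exceed 0.23 TPM in any library. The 8 B cell markers summed to between 1.02 and 3.62 TPM, of which Ighm was the most abundant, and Ms4a1 and Blnk were at 0 throughout. The 7 macrophage or monocyte markers summed to 3.46, 3.75 and 16.7 TPM at 37 °C and to 3.26, 2.69 and 21.4 TPM at 26 °C, highest in replicate 3 at both temperatures. Lyz2 was the most abundant of them in both replicate 3 libraries, at 11.6 and 14.8 TPM, and in 26 °C replicate 2, Cd68 was in the other 3 libraries, and Cd14 was at 0. The part of these transcripts in the results was not tested. Of the 5 fibroblast markers, Col1a1 alone was above 0, at 1.52 to 4.53 TPM.

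Many genes of the program were lower in the cold, and others did not pass the test. Of the 28 genes with a mean of at least 1 TPM, 14 were downregulated at 26 °C by limma (called at an adjusted p under 0.05 with a log2 fold change beyond 1 in size), beside 16.0% of all 12227 tested genes. None of the 28 was upregulated by limma, beside 2.63% of all tested genes, and 0 were higher at an unadjusted p under 0.05 or upregulated when limma was run with voom on recovered reads. For the unadjusted p and for voom the shares of all tested genes that were higher were not counted, so those counts have no comparison. The downregulated genes were Acat2, Hmgcs1, Mvk, Pmvk, Mvd, Idi1 and Fdps before squalene, Fdft1 at squalene, Msmo1 and Dhcr7 after lanosterol, Insig2, Mbtps1 and Mbtps2 of SREBP control, and Stard4. The median log2 fold change of the 28 genes was −1.15, against −0.34 for all tested genes, a gap of −0.81. In each replicate taken alone, the median of the 28 lay below that of all tested genes, by −1.02 in replicate 1, −0.94 in replicate 2 and −0.52 in replicate 3.

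The groups did not overlap, with every 26 °C library below every 37 °C library, for 19 of the 28 genes, beside 31.4% of all tested genes. The reverse order was seen for 0 of the 28, beside 9.69%. Within replicates, 22 of the 28 were lower at 26 °C in all 3, beside 47.9%, and 1, Insig1, was higher in all 3, beside 18.2%. Fewer cells of a type and less RNA per cell cannot be told apart in these bulk libraries.

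**Figure D1:**
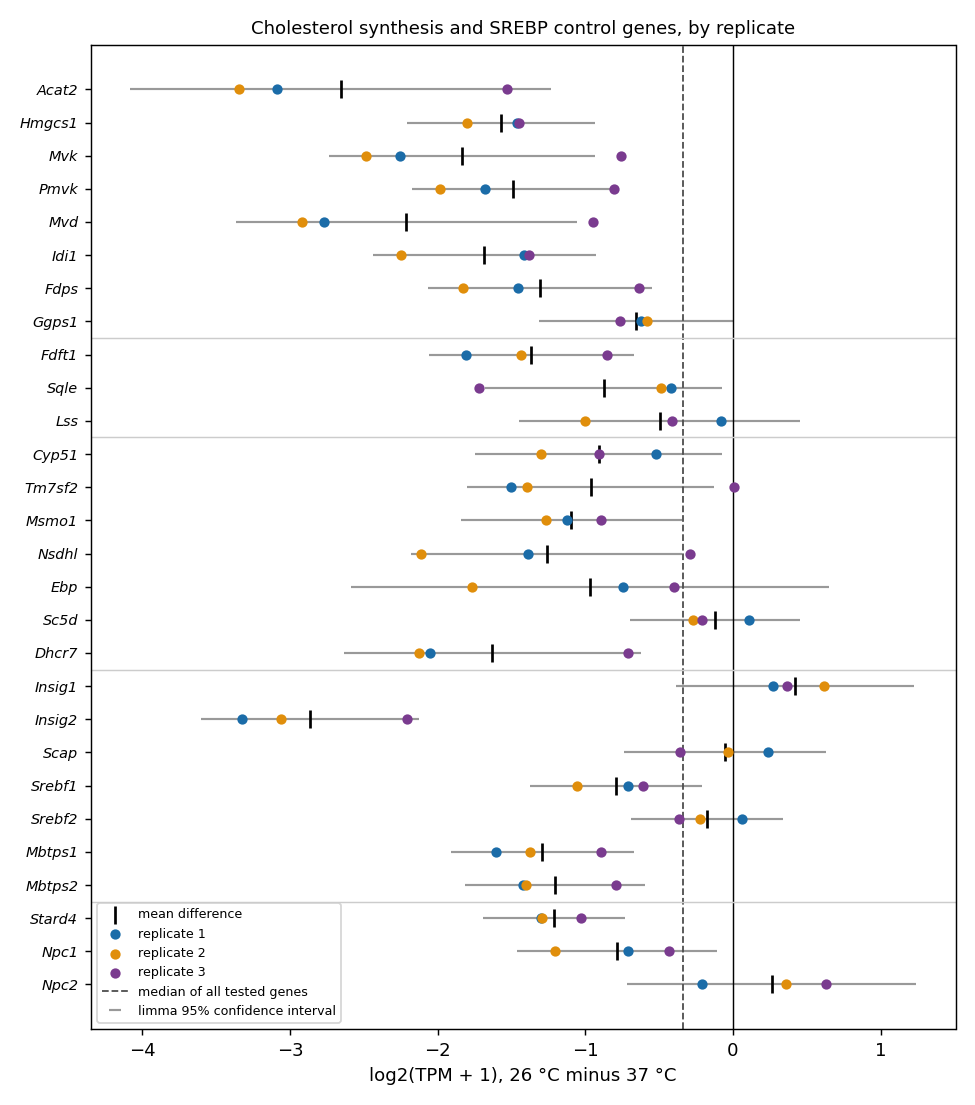
Difference in log2(TPM + 1) between 26 °C and 37 °C for the 28 tested genes in each replicate (coloured points), with the mean difference (black tick), its limma 95% confidence interval (grey bar) and the median of all tested genes (dashed line at −0.34); horizontal lines separate the 5 roles. The points of replicate 3 lie nearest to 0 for all 14 downregulated genes, and Insig1 lies to the right of 0 in all 3 replicates.

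The fall was smallest in replicate 3 for most of these genes. For all 14 downregulated genes the difference between 26 °C and 37 °C was smallest in that replicate. Of the 22 genes lower in all 3 replicates, 18 had their smallest difference there, and Ggps1, Sqle, Lss and Cyp51 did not. The share of all tested genes with this order was not counted. Their median difference was also smallest in replicate 3, at −0.24 against −0.32 and −0.44 in replicates 1 and 2, so the order is not particular to these genes. With both libraries of replicate 3 left out, 16 of the 28 genes were downregulated, 13 of them from the 14, beside 25.3% of all tested genes. With replicate 1 left out, or replicate 2, no gene of the whole table passed (smallest adjusted p of 0.17 and 0.16). The median log2 fold change of the 28 genes then differed from that of all tested genes by −0.75 and −0.74. Of the 28, 26 had a log2 fold change below 0 in both cases, and 14 and 12 were lower at an unadjusted limma p under 0.05. The shares of all tested genes were not counted for these fits, so those counts have no comparison. Single libraries mattered as well, for these genes and for the whole table. Insig2 was the 1 gene of the 28 still downregulated without 37 °C replicate 1 (beside 4.31% of all tested genes) or without 37 °C replicate 2 (2.82%). Without 26 °C replicate 1 the count was 2, Hmgcs1 and Insig2 (beside 3.68%), and without 26 °C replicate 2 it was 4, Hmgcs1, Idi1, Insig2 and Stard4 (4.91%). Without 26 °C replicate 3 it was 16 (beside 22.3%), and without 37 °C replicate 3 it was 13 (14.9%), and 12 of the 14 were downregulated in each of these fits.

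TPM sets each library to the same total, and the count depends on that scaling. Of all tested genes, 321 were upregulated and 1954 downregulated as deposited, against 802 upregulated and 1075 downregulated after median of ratios scaling, which moved the median of all genes from −0.34 to 0.02. After that scaling, 8 of the 28 were downregulated, beside 8.79% of all tested genes, and 0 upregulated, beside 6.56%. The 8 were Acat2, Hmgcs1, Mvk, Pmvk, Mvd, Idi1, Fdft1 and Insig2. With the replicate number as a block, the single call that changed was Nsdhl, giving 15 of 28 downregulated beside 21.9% of all tested genes, and 0 upregulated beside 3.75%. With the block and the scaling together, 9 of the 28 were downregulated beside 12.6%, the 9th being Dhcr7.

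In the mevalonate and isoprenoid steps 7 of 8 tested genes were downregulated, beside 16.0% of all tested genes, and 6 after median of ratios scaling, beside 8.79%. Their median log2 fold change was −1.63, and the same 8 genes summed to 690, 695 and 465 TPM at 37 °C against 221, 172 and 242 TPM at 26 °C. Acat2 (chr17:13161929-13179612, minus strand), the cytosolic thiolase that makes acetoacetyl-CoA, was at 50.1, 42.9 and 69.5 TPM at 37 °C and at 5.01, 3.32 and 23.4 TPM at 26 °C. Every cold library was below every warm one, and 26 °C replicate 3 kept the most. Acat2 fell by 2.65 ± 0.61 (SE) on the log2(TPM + 1) scale (limma adjusted p = 0.024), with an adjusted p of up to 0.090 with 1 library left out. Acat3, a close paralog with which Acat2 may share reads, was at 78.0, 35.0 and 72.6 TPM at 37 °C and at 77.1, 37.3 and 48.9 TPM at 26 °C, so the split between these genes is uncertain.

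Hmgcs1 (chr13:120151887-120169796, plus strand), the cytosolic HMG-CoA synthase, was at 85.9, 63.4 and 66.0 TPM at 37 °C and at 30.6, 17.5 and 23.5 TPM at 26 °C. Its mean was 3.01-fold lower in the cold, from 71.8 ± 12.3 to 23.9 ± 6.56 TPM (SD, n = 3), and the 3 replicates differed by −1.46, −1.80 and −1.45 on the log2 scale. It was thus among the genes whose fall was of like size in all 3 replicates. The log2 fold change of Hmgcs1 was −1.57 ± 0.27 (SE; limma adjusted p = 0.012), and without 37 °C replicate 1 or 2 the adjusted p rose to at most 0.053.

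Mvk and Pmvk add phosphates to mevalonate in turn. Mvk was at 41.4, 38.6 and 31.1 TPM at 37 °C and at 7.87, 6.06 and 18.0 TPM at 26 °C, and its log2 fold change was −1.83 ± 0.39 (SE; limma adjusted p = 0.020, up to 0.078 with 1 library left out). Pmvk was at 13.9, 14.6 and 9.95 TPM at 37 °C and at 3.67, 2.94 and 5.27 TPM at 26 °C, and its log2 fold change was −1.49 ± 0.29 (SE; limma adjusted p = 0.017, up to 0.078). In both kinases the cold library of replicate 3 was the highest of the cold libraries and still under the lowest warm one. Mvd, the decarboxylase that yields isopentenyl diphosphate, was at 37.6, 47.1 and 40.0 TPM at 37 °C and at 4.65, 5.36 and 20.2 TPM at 26 °C. Mvd was lower in every replicate, and its log2 fold change was −2.21 ± 0.50 (SE; limma adjusted p = 0.023, up to 0.085). It overlaps 2 antisense transcripts, and the strand setting of the counting is not given in the sources used here.

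Idi1, the isomerase that makes dimethylallyl diphosphate, was at 19.2, 21.6 and 24.8 TPM at 37 °C and at 6.57, 3.76 and 8.92 TPM at 26 °C. Idi1 fell by 1.68 ± 0.32 (SE) on the log2 scale (limma adjusted p = 0.015, up to 0.066 with 1 library left out). Its processed copy Idi1-ps1, which could take some of its reads, was at 0.58 to 4.26 TPM. Fdps (chr3:89000895-89009274, minus strand), which makes farnesyl diphosphate, was at 435, 459 and 214 TPM at 37 °C and at 158, 128 and 138 TPM at 26 °C. The warm library of replicate 3 carried less than the other warm libraries, while the cold libraries were alike. The log2 fold change of Fdps was −1.31 ± 0.33 (SE; limma adjusted p = 0.031, up to 0.11), and after median of ratios scaling it was −0.91 (adjusted p = 0.093), short of the threshold. Ggps1, the branch enzyme for geranylgeranyl diphosphate, averaged 7.75 ± 1.85 TPM at 37 °C and 4.51 ± 0.82 TPM at 26 °C (SD, n = 3) and did not pass (log2 fold change −0.66, limma adjusted p = 0.13), although its groups did not overlap.

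At the squalene and lanosterol steps 1 of 3 genes was downregulated (beside 16.0% of all tested genes), also after median of ratios scaling (beside 8.79%). Fdft1, squalene synthase, was at 12.9, 8.43 and 8.02 TPM at 37 °C and at 2.97, 2.48 and 3.99 TPM at 26 °C. The groups were well apart, and Fdft1 fell by 1.37 ± 0.30 (SE) on the log2 scale (limma adjusted p = 0.021, up to 0.079 with 1 library left out). Its end overlaps that of Ctsb on the other strand by 774 bases. Sqle, the squalene epoxidase that catalyses the first oxygen-dependent step, was at 69.9, 64.7 and 151 TPM at 37 °C and at 51.9, 45.8 and 45.2 TPM at 26 °C. The warm library of replicate 3 was far above the other warm ones, while the cold libraries lay close together. Sqle did not pass, with a log2 fold change of −0.88 (95% confidence interval −1.68 to −0.07, limma adjusted p = 0.11), and without replicate 3 its log2 fold change was −0.45. Lss, lanosterol synthase, averaged 32.1 ± 11.2 TPM at 37 °C and 23.4 ± 10.7 TPM at 26 °C (SD, n = 3), and its groups overlapped (log2 fold change −0.50, limma adjusted p = 0.42).

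Between lanosterol and cholesterol, 2 of 7 tested genes were downregulated (beside 16.0% of all tested genes), 3 with the replicate block (21.9%) and 0 after median of ratios scaling (8.79%). Msmo1, the C4-methylsterol oxidase, was at 90.4, 53.5 and 56.7 TPM at 37 °C and at 41.0, 21.7 and 30.0 TPM at 26 °C, a drop in each replicate. Its log2 fold change was −1.09 ± 0.32 (SE; limma adjusted p = 0.049), which was past the threshold in none of the 6 fits with 1 library left out (0.064 to 0.15) nor after median of ratios scaling (0.17). Dhcr7, which completes cholesterol from 7-dehydrocholesterol, was at 74.7, 61.4 and 23.1 TPM at 37 °C and at 17.2, 13.3 and 13.7 TPM at 26 °C. Here the spread lay in the warm libraries, with replicate 3 far below the others. Dhcr7 fell by 1.63 ± 0.43 (SE) on the log2 scale (limma adjusted p = 0.037, up to 0.13). After median of ratios scaling its log2 fold change was −1.25 (adjusted p = 0.087), and it passed with the replicate block added (0.026).

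Nsdhl, the sterol dehydrogenase that acts after Msmo1, was at 56.8, 48.3 and 38.0 TPM at 37 °C and at 21.1, 10.4 and 30.9 TPM at 26 °C. Its groups did not overlap, and its log2 fold change of −1.26 ± 0.39 (SE) missed the threshold without a block (limma adjusted p = 0.058) and passed with the replicate block (0.033) and without replicate 3 (−1.75, adjusted p = 0.016). Cyp51, the lanosterol demethylase, averaged 116 ± 42.2 TPM at 37 °C and 61.1 ± 22.3 TPM at 26 °C (SD, n = 3; log2 fold change −0.91, limma adjusted p = 0.11). With the replicate block it passed the p threshold (limma adjusted p = 0.023) and missed on size. Cyp51 was lower at 26 °C in every replicate, but the cold library of replicate 3 was above the warm library of replicate 1. Tm7sf2, a sterol reductase, had 35 to 115 reads per library and a log2 fold change of −0.96 (limma adjusted p = 0.093). In replicate 3 Tm7sf2 differed by 0.01, against −1.50 and −1.40 in replicates 1 and 2, and without replicate 3 it was downregulated (adjusted p = 0.014).

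Ebp, the sterol isomerase, was at 21.8, 35.6 and 75.4 TPM at 37 °C and at 12.6, 9.75 and 56.9 TPM at 26 °C. Ebp varied more between replicates than between temperatures (log2 fold change −0.97, limma adjusted p = 0.35), and without replicate 3 it was downregulated (−1.26, adjusted p = 0.030). The replicate block brought its limma adjusted p to 0.045, with the size still short of the threshold. Sc5d, the C5-desaturase, averaged 25.5 ± 2.70 TPM at 37 °C and 23.6 ± 4.93 TPM at 26 °C (SD, n = 3). Its log2 fold change was −0.12 (limma adjusted p = 0.76) and turned to 0.26 after median of ratios scaling. Hsd17b7, a ketoreductase of the same stretch, was the 1 gene under the filter, at 0, 0.098 and 0 TPM at 37 °C and at 0.23, 0.47 and 0 TPM at 26 °C, or 0 to 21 reads.

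Summed over the 19 enzymes among these genes, the synthesis path stood at 1158, 1131 and 1059 TPM at 37 °C and at 478, 352 and 573 TPM at 26 °C. The warm sums were alike across replicates, and each cold sum was under every warm one. Fdps alone made up 37.6%, 40.6% and 20.2% of the sum at 37 °C and 33.1%, 36.5% and 24.0% at 26 °C, so its weight followed the replicate more than the temperature.

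In SREBP control 3 of 7 genes were downregulated (beside 16.0% of all tested genes), and 1, Insig2, after median of ratios scaling (beside 8.79%). Insig2 (chr1:121232082-121260391, minus strand) was at 13.0, 10.6 and 9.79 TPM at 37 °C and at 0.40, 0.40 and 1.34 TPM at 26 °C. All cold libraries were far below all warm ones, and the read numbers were 623, 613 and 826 at 37 °C against 24, 25 and 96 at 26 °C. The mean was 15.7-fold lower in TPM, from 11.1 ± 1.64 to 0.71 ± 0.55 TPM (SD, n = 3), and 28.1-fold lower without 26 °C replicate 3. On the log2(TPM + 1) scale, which understates the change of low genes, the fold change was −2.86 ± 0.32 (SE; limma adjusted p = 0.0067), past the threshold in all 6 fits with 1 library left out (adjusted p of 0.0025 to 0.044) and after median of ratios scaling (−2.60, adjusted p = 0.0097). Measured from the all-gene median, the change of Insig2 was −2.52.

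Insig1 (chr5:28276410-28283660, plus strand), which is itself a classic SREBP target, was at 126, 106 and 66.6 TPM at 37 °C and at 153, 163 and 86.3 TPM at 26 °C. Each replicate was higher in the cold, by 0.27, 0.62 and 0.37 on the log2 scale, but the groups overlapped because replicate 3 was lower at both temperatures. Insig1 did not pass (log2 fold change 0.42, 95% confidence interval −0.39 to 1.22, limma adjusted p = 0.42), nor after median of ratios scaling (0.82, adjusted p = 0.16). With the replicate block added to that scaling, its limma adjusted p was 0.024, and the log2 fold change of 0.82 missed the size threshold alone. The ratio of Insig1 to Insig2 TPM within a library was 9.74, 9.94 and 6.80 at 37 °C and 386, 411 and 64.4 at 26 °C. Both genes encode proteins that retain Scap, and in TPM Insig1 was the larger share of the pair in every library.

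Scap, the sterol sensor and escort, was at 50.8, 74.9 and 101 TPM at 37 °C and at 60.0, 73.0 and 78.6 TPM at 26 °C. The differences had no common direction across replicates (log2 fold change −0.05, 95% confidence interval −0.74 to 0.63, limma adjusted p = 0.92; 0.34 after median of ratios scaling). Srebf2, which encodes the SREBP of the cholesterol genes, was at 138, 126 and 134 TPM at 37 °C and at 144, 108 and 104 TPM at 26 °C. Srebf2 did not pass (log2 fold change −0.18, 95% confidence interval −0.69 to 0.34, limma adjusted p = 0.60), and its sign turned after median of ratios scaling (0.22). Srebf1, which encodes the SREBP tied more to fatty acid genes, was at 91.7, 132 and 81.2 TPM at 37 °C and at 55.5, 62.9 and 52.8 TPM at 26 °C. Its groups did not overlap, yet its log2 fold change of −0.79 ± 0.25 (SE) missed both thresholds (limma adjusted p = 0.060). With the replicate block it missed the size threshold alone (limma adjusted p = 0.025). The ratio of Srebf2 to Srebf1 TPM was 1.50, 0.96 and 1.65 at 37 °C and 2.59, 1.71 and 1.96 at 26 °C.

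Both SREBP proteases passed. Mbtps1, the site-1 protease of the Golgi lumen, was at 69.0, 89.3 and 62.8 TPM at 37 °C and at 22.1, 33.8 and 33.3 TPM at 26 °C. Mbtps1 fell by 1.29 ± 0.27 (SE) on the log2 scale (limma adjusted p = 0.019, up to 0.082 with 1 library left out), and after median of ratios scaling its log2 fold change of −0.90 was under the size threshold (adjusted p = 0.045). Mbtps2, the membrane-embedded site-2 protease, was at 57.6, 44.6 and 35.2 TPM at 37 °C and at 20.9, 16.2 and 19.9 TPM at 26 °C. Its cold libraries lay close together under the lowest warm one. The log2 fold change of Mbtps2 was −1.21 ± 0.26 (SE; limma adjusted p = 0.021, up to 0.083), and −0.82 after median of ratios scaling (adjusted p = 0.069). Yy2 lies within Mbtps2 on the same strand, so reads of the shared 2867 bases are uncertain. The ratio of Scap to Mbtps1 TPM was 0.74, 0.84 and 1.61 at 37 °C and 2.72, 2.16 and 2.36 at 26 °C, higher in every cold library.

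**Figure D2:**
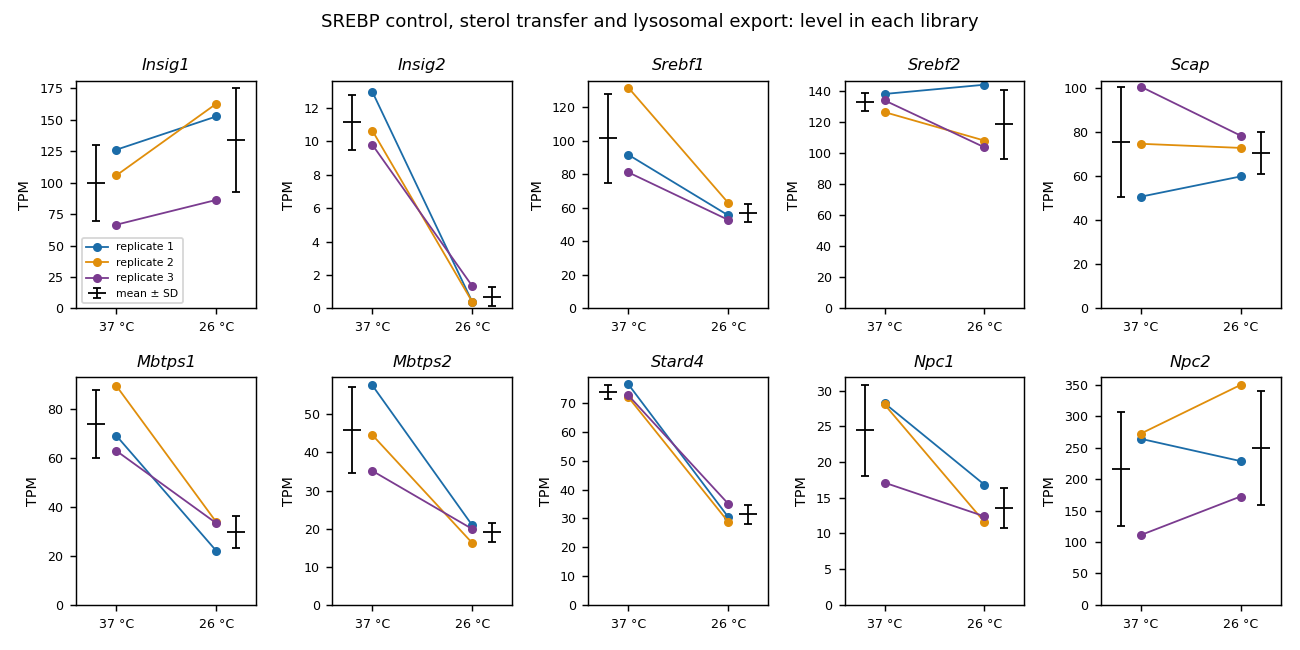
TPM of 10 genes of SREBP control, sterol transfer and lysosomal export in each library, at 37 °C and 26 °C; coloured lines join libraries with the same replicate number, and black bars give the mean ± SD (n = 3). Insig2 drops from between 9.79 and 13.0 TPM to between 0.40 and 1.34 TPM, while the levels of Insig1, Scap, Srebf2 and Npc2 overlap between temperatures.

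Of the 3 genes of sterol transfer and lysosomal export, 1 was downregulated (beside 16.0% of all tested genes), and 0 after median of ratios scaling (beside 8.79%). Stard4 (chr18:33332191-33346937, minus strand), a soluble sterol carrier and SREBP target, was at 76.5, 72.0 and 72.6 TPM at 37 °C and at 30.4, 28.8 and 35.0 TPM at 26 °C. Its libraries were the most even of the downregulated genes, from 73.7 ± 2.42 to 31.4 ± 3.25 TPM (SD, n = 3). The log2 fold change of Stard4 was −1.21 ± 0.21 (SE; limma adjusted p = 0.011, up to 0.058 with 1 library left out), and after median of ratios scaling it was −0.82, under the size threshold with an adjusted p of 0.030. Npc1, the membrane transporter that exports cholesterol from lysosomes, was at 28.3, 28.1 and 17.1 TPM at 37 °C and at 16.8, 11.6 and 12.4 TPM at 26 °C. The highest cold value was just under the lowest warm one, and Npc1 did not pass (log2 fold change −0.78, limma adjusted p = 0.092). With the replicate block it missed on size alone (limma adjusted p = 0.045). Npc1 shares 8982 bases with Rmc1 on the other strand, and Lss and Srebf1 also overlap genes of the opposite strand, so their levels are uncertain if strand was not used in counting. Npc2, the soluble lysosomal partner of Npc1, was at 264, 272 and 111 TPM at 37 °C and at 229, 350 and 172 TPM at 26 °C. Npc2 had no common direction across replicates (log2 fold change 0.26, 95% confidence interval −0.72 to 1.24, limma adjusted p = 0.69), and replicate 3 was lowest at both temperatures. The ratio of Npc2 to Npc1 TPM was 9.35, 9.70 and 6.48 at 37 °C and 13.6, 30.1 and 13.9 at 26 °C, higher in every cold library.

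Ordered by mean TPM at 37 °C, Fdps (370 ± 135) and Npc2 (216 ± 90.9) stood first, with SDs (n = 3) that overlap. Srebf2 (133 ± 5.91), Cyp51 (116 ± 42.2), Srebf1 (102 ± 26.7), Insig1 (99.5 ± 30.3) and Sqle (95.3 ± 48.5) followed and did not differ beyond their spread. At the low end were Insig2 (11.1 ± 1.64), Fdft1 (9.78 ± 2.70), Tm7sf2 (8.69 ± 2.58) and Ggps1 (7.75 ± 1.85), again within their spread, and Hsd17b7 was last. At 26 °C the first places went to Npc2 (250 ± 90.7), Fdps (141 ± 15.4), Insig1 (134 ± 41.5) and Srebf2 (118 ± 22.1), and Insig2 (0.71 ± 0.55) was last of the 28 tested genes.

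Cell cycle genes were lower in replicates 1 and 2 and less so in replicate 3. Of 10 genes tested, 4 were downregulated and 0 upregulated by limma, beside 16.0% and 2.63% of all tested genes. With the replicate block 7 were downregulated (beside 21.9%), and without replicate 3 all 10 were (beside 25.3%). After median of ratios scaling 2 were (beside 8.79%), Bub1 and Aurkb, while Top2a (−2.18, adjusted p = 0.056) and Plk1 (−1.57, adjusted p = 0.078) missed the p threshold. With the replicate block added to that scaling, Top2a (0.025) and Mcm2 (0.042), the latter named after its values were seen, passed as well. Their median log2 difference was −2.05 in replicate 1, −2.95 in replicate 2 and −0.21 in replicate 3, against −1.34, −1.39 and −0.76 for the 28 genes of the sterol program and −0.32, −0.44 and −0.24 for all tested genes. In replicate 3 the cell cycle median was thus close to that of all genes, and Mki67, Cdk1 and Ccnb1, named after their values were seen, were higher at 26 °C there. The 10 genes summed to 2292, 2421 and 2196 TPM at 37 °C and to 573, 318 and 1846 TPM at 26 °C, with the smallest drop in replicate 3. Top2a was at 485 ± 44.7 TPM at 37 °C and 122 ± 136 TPM at 26 °C (SD, n = 3; log2 fold change −2.58, limma adjusted p = 0.038). Bub1 (−2.29, adjusted p = 0.030), Aurkb (−2.14, adjusted p = 0.027) and Plk1 (−1.96, adjusted p = 0.048) passed as well by limma. All 4 lost the call without 37 °C replicate 1 or 2, or 26 °C replicate 1 or 2 (adjusted p of up to 0.13, 0.10, 0.088 and 0.15), and Top2a, Aurkb and Plk1 also lost it without 37 °C replicate 3. The part of growth in the lower sterol genes was not tested.

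Genes that use isoprenoids were counted next. Of 15 tested, 4 were downregulated and 1 upregulated, beside 16.0% and 2.63% of all tested genes, with a median log2 fold change of −0.39. Dhdds and Nus1 form the enzyme that makes dolichol precursors, and they went opposite ways. Dhdds was at 46.1, 44.1 and 63.7 TPM at 37 °C and at 9.82, 8.85 and 34.2 TPM at 26 °C (log2 fold change −1.73, limma adjusted p = 0.044, up to 0.14 with 1 library left out). Nus1 was at 65.5, 113 and 105 TPM at 37 °C and at 171, 248 and 209 TPM at 26 °C (log2 fold change 1.16, limma adjusted p = 0.029, up to 0.10). Icmt, which methylates prenylated proteins, fell by 1.31 on the log2 scale (limma adjusted p = 0.014, up to 0.072), and Coq2 of ubiquinone synthesis fell by 1.25 (0.038, up to 0.13). After median of ratios scaling Nus1 alone of these 4 kept its call, and with the replicate block added Dhdds (−1.35, adjusted p = 0.019) passed as well, as did Pdss1 (1.03, adjusted p = 0.032), named after its values were seen. The block alone gave 5 downregulated genes, beside 21.9% of all tested genes. It added Fntb (−1.05, limma adjusted p = 0.017), also named after its values were seen.

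Other machinery acts around Scap and Insig. Of 13 COPII coat genes, whose vesicles carry Scap to the Golgi, 2 were downregulated and 0 upregulated, beside 16.0% and 2.63% of all tested genes, with a median of −0.18. Those were Sec23ip (log2 fold change −1.58, limma adjusted p = 0.011, up to 0.060 with 1 library left out) and Sec23a (−1.10, adjusted p = 0.020, up to 0.085), of which Sec23ip alone kept its call after median of ratios scaling. Of 11 genes of sterol-dependent degradation in the endoplasmic reticulum, 1 was downregulated and 0 upregulated, with a median of 0.25. That gene was Erlin2 (log2 fold change −1.12, limma adjusted p = 0.025, up to 0.11). After median of ratios scaling 0 were downregulated and 1 upregulated, beside 8.79% and 6.56% of all tested genes. Erlin2 lost its call there (−0.74, adjusted p = 0.098), and Ube2g2, named after its values were seen, passed (1.04, adjusted p = 0.028).

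Sterol storage and lipoprotein uptake were described in the same way. Of 14 tested genes of sterol esterification, hydrolysis and transfer, 4 were downregulated and 0 upregulated, beside 16.0% and 2.63% of all tested genes, with a median of −0.65. Soat1, which esterifies cholesterol for storage, was at 154, 188 and 66.2 TPM at 37 °C and at 50.5, 44.9 and 33.8 TPM at 26 °C (log2 fold change −1.52, limma adjusted p = 0.036, up to 0.12 with 1 library left out). The sterol carriers Osbp (−1.42, limma adjusted p = 0.021, up to 0.077), Osbpl8 (−1.19, adjusted p = 0.016, up to 0.064) and Stard3 (−1.05, adjusted p = 0.028, up to 0.11) passed too. After median of ratios scaling Osbp alone kept its call, and with the replicate block added Soat1 passed as well (−1.13, adjusted p = 0.017). The block alone gave 5 downregulated genes, beside 21.9% of all tested genes. It added Osbpl1a (−1.09, limma adjusted p = 0.036), named after its values were seen. Of 6 tested genes of lipoprotein uptake, 0 were downregulated and 1 upregulated, with a median of 0.10. After median of ratios scaling 2 were upregulated, beside 6.56% of all tested genes: Lrp8 and Scarb1, the latter named after its values were seen. Lrp8, a lipoprotein receptor, was at 10.7, 11.7 and 25.3 TPM at 37 °C and at 50.6, 31.9 and 33.0 TPM at 26 °C (log2 fold change 1.29, limma adjusted p = 0.046, up to 0.15). Every cold library was above every warm one for Lrp8, with the smallest gain in replicate 3.

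Fatty acid genes were set beside the sterol genes because SREBPs act on both. Of 10 tested, 3 were downregulated and 0 upregulated, beside 16.0% and 2.63% of all tested genes, with a median log2 fold change of −0.53, nearer to all tested genes than the sterol genes were. The 3 were Fads1 (−1.43, limma adjusted p = 0.033, up to 0.10 with 1 library left out), Acss2 (−1.38, adjusted p = 0.042, up to 0.14) and Elovl5 (−1.32, adjusted p = 0.038, up to 0.13). None of the 3 passed after median of ratios scaling, and with the replicate block added Fads1 (−1.05, adjusted p = 0.035) and Acss2 (−1.04, adjusted p = 0.036) did. The block alone gave 4 downregulated genes, beside 21.9% of all tested genes. It added Scd2 (−1.09, limma adjusted p = 0.015), named after its values were seen.

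Promoter sequence was compared because 14 of these genes were downregulated. RefSeq promoters (GRCm38.p6; 250 bases before to 50 after the start) matched 24 of the 29 genes, and Fdps, Fdft1, Sqle, Stard4 and Npc1 had no entry. Each motif was searched on both strands, and matches to different motifs overlapped 0 times in these genes. The sterol regulatory element core TCACNCCAC was in the promoter of 1 of the 24 genes, Hmgcs1, against 1.24% of all 32851 promoters and 1.34% of tested genes. Variants of that core were not searched. The NF-Y box CCAAT was in promoters of 20 of the 24 genes, against 37.4% of all promoters and 42.7% of tested genes. The 4 genes without that box in the window were Acat2, Scap, Mbtps1 and Mbtps2. The Sp1 box GGGCGG was in 21 of the 24, against 35.7% of all promoters and 66.4% of tested genes, and the E-box CACGTG was in 5 of the 24, against 7.15% and 11.5%. The CCAAT box was present in 8 of the 11 downregulated genes with an entry and in 12 of the 13 others, Insig1, Sc5d and Srebf2 among them. A match is a description of these letters and not a bound site.

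The promoter of Hmgcs1 is shown because it holds both kinds of box. The run covers the 250 bases before the start (GRCm39 chr13:120151637-120151886, plus strand), with TCACNCCAC and 3 CCAAT boxes in capitals, the latter written ATTGG where they lie on the opposite strand.
Hmgcs1: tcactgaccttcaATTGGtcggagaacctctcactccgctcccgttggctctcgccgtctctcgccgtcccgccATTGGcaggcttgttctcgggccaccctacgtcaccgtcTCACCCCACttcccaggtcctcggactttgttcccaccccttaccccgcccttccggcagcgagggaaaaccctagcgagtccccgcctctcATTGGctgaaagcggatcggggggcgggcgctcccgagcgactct

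For 8 other genes 1 CCAAT box is shown in capitals with 10 bases on either side, 5′ to 3′ along the gene. It is the box nearest the start among those whose window ends before the start, and Mvk and Idi1 each hold a further box 14 bases before the start. The windows are printed so that the boxes of downregulated genes can be read beside that of Insig1. The windows lie in GRCm39 at chr5:114582270-114582294 (plus strand) for Mvk, chr3:89361702-89361726 (plus) for Pmvk, chr8:123170174-123170198 (minus) for Mvd, chr13:8935587-8935611 (plus) for Idi1, chr8:65186653-65186677 (minus) for Msmo1, chr7:143383892-143383916 (plus) for Dhcr7, chr1:121260333-121260357 (minus) for Insig2 and chr5:28276184-28276208 (plus) for Insig1. The RefSeq start used lies inside the listed gene by 7124 bases for Dhcr7, 210 for Msmo1, 73 for Insig2 and 6 for Mvk. The windows of Mvk, Mvd, Idi1, Msmo1, Dhcr7 and Insig2 fall on GENCODE exons of the same gene.
Mvk: aatgtttgacCCAATctgtaaagga
Pmvk: ctcaggttggCCAATtcacagcatc
Mvd: ggccagcgggCCAATcatatggcag
Idi1: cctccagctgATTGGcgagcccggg
Msmo1: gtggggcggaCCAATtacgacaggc
Dhcr7: tccacttccgATTGGtcgtctgtga
Insig2: accttccacaCCAATctatattaaa
Insig1: ccctcctcccATTGGctccggcggc
The boxes shown began 50 bases before the start in Mvk, 136 in Pmvk, 27 in Mvd, 45 in Idi1, 55 in Msmo1, 49 in Dhcr7, 29 in Insig2 and 216 in Insig1, the farthest of the 8 shown.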

How the data were processed

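Poly(A) RNA of D10 T cells was sequenced from strand-marking libraries. The submitters' processing notes name FastQC 0.11.7, Trimmomatic 0.38, HISAT2 2.1.0, featureCounts 1.6.3 and GRCm39, and the authors deposited TPM values per gene. Neither the strand setting nor the annotation release is given in the sources used here. Whole reads were recovered from the TPM steps for all 21195 genes above 0 (within 1e-06 reads). Log2(TPM + 1) values were fitted by limma 3.58.1 in R 4.3.3, with its trend option, for 12227 genes with a mean of at least 1 TPM, with Benjamini-Hochberg adjustment over all of them, two-sided. Calls needed an adjusted p under 0.05 with a log2 fold change beyond 1 in size. Alternatives were a pseudocount of 0.1, no filter, median of ratios scaling, the replicate block, voom and leaving out libraries. The replicate numbers pair the libraries, since deviations from the group means correlated across genes at 0.48, 0.50 and 0.51 for same-numbered libraries and at most 0.019 for others. Every gene of the sterol program is named, with up to 4 called genes of each other list. The genes and lists were chosen with earlier results of these data known. The labels call the replicates biological, and p-values measure the spread between these libraries.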

Additional observations from a re-analysis of the deposited data

How the results depend on the processing

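Of the 28 tested genes, the 14 downregulated became 8 after median of ratios scaling, 8 with voom on recovered reads (the same 8, beside 9.18% of all tested genes), 8 without a filter on low values (5 of them shared, with Mbtps1, Mbtps2 and Stard4 in place of Acat2, Mvd and Fdft1, beside 5.29%) and 9 with the replicate block and median of ratios scaling together. The count was 13 with a pseudocount of 0.1 (beside 16% of all tested genes) and 15 with the replicate block (beside 21.9%). The block added Nsdhl and changed no other call among the 28. Leaving out libraries gave between 0 and 16, and the fits without a whole replicate have fewer libraries. No setting gave an upregulated gene. The gap between the median of these genes and that of all tested genes stayed between −1.02 and −0.55. The signs of 3 genes turned with scaling, none of them called. Sc5d was at 0.26 after median of ratios scaling, with or without the block, and at 0.27 with voom. Scap was at 0.34 in all 3 of these fits. Srebf2 was at 0.22 in all 3. With libraries left out, the log2 fold change of Npc2 ranged from −0.16 to 0.50, that of Sc5d from −0.26 to 0.035 and that of Scap from −0.31 to 0.18. The cause was not tested. The CCAAT box was in 20 of 24 promoters on either strand and in 11 on the strand of the gene alone. Depth limits Hsd17b7, Tm7sf2 and the cold level of Insig2, each with under 50 reads in at least 1 library.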
